A study of Homo sapiens with 6 samples.

Results

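The 10 genes described here encode chemokines and cytokines that tumour cells can release, namely CCL2, CCL5, CXCL1, CXCL2, CXCL3, CXCL8, IL1A, IL1B, IL6 and LIF. They were selected on their symbols, out of the 19934 gene symbols in the count tables, and with 1 measured result in view, the fall of CCL5 upon SET knockdown. For that reason the comparison of si-SET with si-Ctr gives values, and a count of calls set beside that over all genes. It gives no p-value or counting interval for any of the 10 genes, and CCL5 is given without either throughout. A read count was recorded for 9 of the 10 genes in at least 1 library, and 5 of them, CCL2, CXCL1, CXCL2, CXCL3 and LIF, had a mean of 10 or more counts per library.

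RNA was sequenced from H1299 (NCI-H1299) cells, an established human lung cancer line that the labels describe as lung adenocarcinoma. The study asked how the nuclear oncoprotein SET and its partner ZBTB11, a zinc finger transcription factor, act on transcription. The cells were unedited, and all 6 libraries came from cells that had received an siRNA over 4 days. There were 2 libraries each with control siRNA (si-Ctr, the labels' WT genotype), siRNA against ZBTB11 (si-ZBTB11) and siRNA against SET (si-SET), called biological replicates by the study. The study describes 2 individual siRNA oligos against ZBTB11, and which of them each si-ZBTB11 library received is not given in the sources used here, so the 2 libraries may differ in oligo. The comparisons thus rest on 1 cell line and 1 time.

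Chemokines are small secreted proteins that steer leukocytes through receptors of the G protein-coupled family. CCL2 and CCL5, of the CC class, act chiefly on monocytes and T cells, while CXCL1, CXCL2, CXCL3 and CXCL8 draw neutrophils through CXCR1 and CXCR2. IL-1α and IL-1β (IL1A, IL1B) bind IL1R1 and IL1RAP and switch on NF-kB, which in turn drives CXC chemokine and IL6 genes, and IL-6 and LIF signal through gp130 (IL6ST) to JAK kinases and STAT3. The mRNAs of many of these genes are short-lived, since AU-rich repeats in their 3′ untranslated regions are bound by decay factors such as ZFP36.

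The sequences below are shown because CXCL1, CXCL2 and CXCL3 are nearly identical over 51 bases up to the end of a promoter element. Identity outside these bases was not measured. IL6 carries a related element, yet CXCL2 was far above CXCL1 and CXCL3 and IL6 had no read. They are 91-base windows from RefSeq promoters on GRCh38.p14, read on the strand of each gene, and the capitals mark the NF-kB (kB) element.
CXCL1 (chr4:73869274-73869364, plus strand): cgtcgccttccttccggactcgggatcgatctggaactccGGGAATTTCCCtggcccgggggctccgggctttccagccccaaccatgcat
CXCL3 (chr4:74038718-74038808, minus strand): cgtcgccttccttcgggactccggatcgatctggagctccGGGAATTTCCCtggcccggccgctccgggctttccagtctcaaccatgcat
CXCL2 (chr4:74099223-74099313, minus strand): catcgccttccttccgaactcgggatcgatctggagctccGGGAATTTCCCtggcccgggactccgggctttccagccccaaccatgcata
IL6 (chr7:22727087-22727177, plus strand): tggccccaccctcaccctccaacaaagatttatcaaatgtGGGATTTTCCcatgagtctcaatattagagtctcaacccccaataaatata
Over the 51 bases up to the end of the element, CXCL1 differed from CXCL3 and from CXCL2 at 3 bases each (94.1% identical) and CXCL3 from CXCL2 at 4 (92.2%), whereas IL6 was 43.1% to 47.1% identical to them. The element begins 79 bases upstream of the start of CXCL1 and of CXCL3, 78 upstream of CXCL2 and 73 upstream of IL6, counted from the RefSeq starts. For CXCL3 and IL6 these starts lie inside the outer bounds of the GENCODE genes given further on, whereas that of CXCL1 is the same.

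RefSeq promoters (300 bases, most of them before the start) were at hand for 7 of the 10 genes, those of CXCL1, CXCL2, CXCL3, CXCL8, IL1A, IL1B and IL6. The kB consensus, searched as GGGRNNYYCC (R is A or G, Y is C or T, N is any base), was found on either strand in 4 of the 7, against 11.3% of 35116 promoters. Near matches were not counted, such as the GGAATTTCC that the CXCL8 promoter holds. The absence of the word therefore does not show that a promoter lacks a kB element. The AP-1 word TGANTCA was found in CXCL8 and IL1A, against 7.71% of promoters, and the interferon response word GAAANNGAAA in none of the 7, against 3.57%. CXCL8 and IL1A also held TATAAA, which 11.5% of promoters hold. The words CCGGAAG and CAGGAAG, the ZBTB11 motif of the study, were found in CXCL1 alone, against 21.8% of promoters, beginning 109 bases upstream and not overlapping the kB element. A match of letters is a description and not evidence that a factor binds there.

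The decay signal in the 3′ untranslated region was searched as the pentamer ATTTA and the nonamer TTATTTATT, which overlap each other, on the transcript strand of the canonical GENCODE transcript. The nonamer was present in 6 of the 10 genes, against 8.49% of 19206 genes, and 3 or more pentamers in 8 of the 10, against 41.9%. CXCL2 held the most, with 10 pentamers and 5 nonamers, ahead of CXCL8 with 9 and 1, CXCL3 and LIF with 7 each, and CXCL1, IL1B and IL6 with 6 each. CCL5 held none and CCL2 held 1 pentamer. A window that holds part of the nonamers of each of the 2 most abundant genes is printed with the nonamers in capitals, bases 139 to 168 of the 716-base region of CXCL2 and bases 2654 to 2683 of the 3198-base region of LIF.
CXCL2: gtcttctatTTATTTATTTATTTATTTATT
LIF: aagagagatgtctccgggcccTTATTTATT

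The libraries held 16653115 to 17694522 counts, and 3 counts, taken as the floor, equal 0.169 to 0.179 CPM (the count scaled for library size), which covers counting error only. The targeted genes followed the labels. SET had 11656 and 11007 counts in si-Ctr, 11441 and 11244 in si-ZBTB11 and 1032 and 1031 in si-SET, and ZBTB11 had 925 and 1075, 548 and 544, and 846 and 708 in the same order. ZBTB11 was thus lower in si-SET as well (log2 fold change −0.39, adjusted p = 2.12e-05, edgeR). Of the epithelial markers, KRT8 and KRT18 had 6083 to 8320 counts, whereas KRT19, EPCAM and CDH1 had at most 12. The lung adenocarcinoma markers were low, NKX2-1 at 37 to 61 counts, NAPSA at 3 to 10 and SFTPB at 0 to 7. Of the leukocyte markers, PTPRC was at 0 in 5 of 6 libraries and CD3E in all 6, and CD14, CD68 and LYZ had at most 6 counts. The fibroblast marker LUM was at 0 and COL1A1 had 73 to 101 counts.

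Levels were set beside each other as CPM per kilobase of merged exons. On this scale CXCL2 stood first at 164 ± 14.6 (mean ± SD over all 6 libraries), followed by LIF at 11 ± 1.09 and CCL2 at 1.82 ± 0.713. CXCL3 (0.690 ± 0.109), CXCL1 (0.556 ± 0.202) and CCL5 (0.337 ± 0.295) came next, and these neighbours overlapped in their libraries. In si-Ctr alone their order was CXCL1 (0.688), CCL5 (0.646) and CXCL3 (0.577). IL1A (0.126), CXCL8 (0.117) and IL1B (0.0809) overlapped as well and changed order among themselves when transcript length replaced merged exons. IL6 was last at 0. CXCL2 was above CXCL1, CXCL3 and CXCL8, its neighbours on chromosome 4, in each of the 6 libraries.

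**Figure D1:**
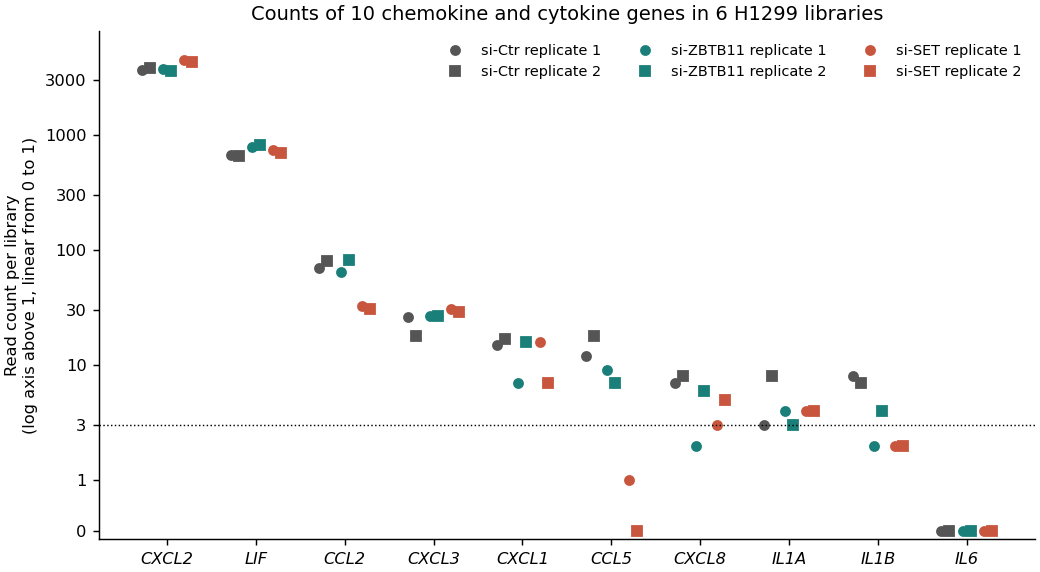
Read counts of the 10 chemokine and cytokine genes in each of the 6 libraries, on a vertical axis that is logarithmic above 1 and linear from 0 to 1; colours mark the siRNA, symbols the replicate and the dotted line the floor of 3 counts. CXCL2 and LIF lie at 656 counts or more in every library, CCL2 lies lower in si-SET than in si-Ctr and si-ZBTB11, and IL6 is at 0 throughout.

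CCL2, the monocyte attractant, was lower upon SET knockdown and not upon ZBTB11 knockdown. Reads on CCL2 numbered 70 and 81 in si-Ctr, 64 and 82 in si-ZBTB11 and 33 and 31 in si-SET. Both si-SET libraries thus lay below all 4 others, and the si-ZBTB11 libraries enclosed the si-Ctr libraries. In bulk RNA fewer expressing cells and less mRNA per cell cannot be told apart. In CPM these are 4.42 ± 0.594, 4.30 ± 0.832 and 1.84 ± 0.0302 (mean ± SD, n = 2 libraries each). The fitted log2 fold change was −1.26 (SE 0.29) in si-SET against si-Ctr, a 2.39-fold lower level, and −0.04 (SE 0.22, adjusted p = 0.934, edgeR) in si-ZBTB11 against si-Ctr. The knockdowns were also compared with each other, and CCL2 was lower in si-SET than in si-ZBTB11 by a log2 fold change of −1.22 (SE 0.28, adjusted p = 0.00164, edgeR). The si-SET libraries of that comparison are those in which the fall of CCL5 was seen. Without the si-ZBTB11 replicate 2, the value was −1.01 with an adjusted p of 0.0562 in edgeR.

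CCL5 (RANTES), which attracts T cells and monocytes, was close to the floor from the start. It had 12 and 18 counts in si-Ctr, 9 and 7 in si-ZBTB11 and 1 and 0 in si-SET. The 3 groups did not overlap, and the si-SET libraries were under the floor of 3 counts. In sums over 2 libraries, 1 count in si-SET stands against 30 in si-Ctr, a ratio of 0.0329 once library sizes are taken into account. Against 16 in si-ZBTB11 the ratio is 0.0613. The sum in si-ZBTB11 was 0.536 times that of si-Ctr. No interval is given for these ratios, since the list was chosen on CCL5. CCL5 passed the filter on low counts only where the si-Ctr libraries were in the fit. Of the 31-base words of its exons, 24.2% also occur in other genes, 3620 of them, and 6.97% of its 100-base words do, so the placement of part of its few reads is uncertain.

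CCL2 lies on chromosome 17 of hg38 (34255274 to 34257208, plus strand, GENCODE version 44), 13.0 kb from the start of CCL7, a related monocyte attractant, and CCL5 lies 1614.3 kb further on (35871491 to 35880793, minus strand). CCL7, from the list of other CC chemokines, had 47 and 78 counts in si-Ctr, 38 and 43 in si-ZBTB11 and 29 and 32 in si-SET. It was lower in si-SET than in si-Ctr (log2 fold change −1.06, SE 0.31, adjusted p = 0.00544, edgeR), whereas si-ZBTB11 against si-Ctr gave −0.62 (SE 0.28, adjusted p = 0.109) and the knockdowns against each other −0.44 (SE 0.32, adjusted p = 0.389). The 2 si-Ctr libraries of CCL7 differed from each other more than those of CCL2.

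**Figure D2:**
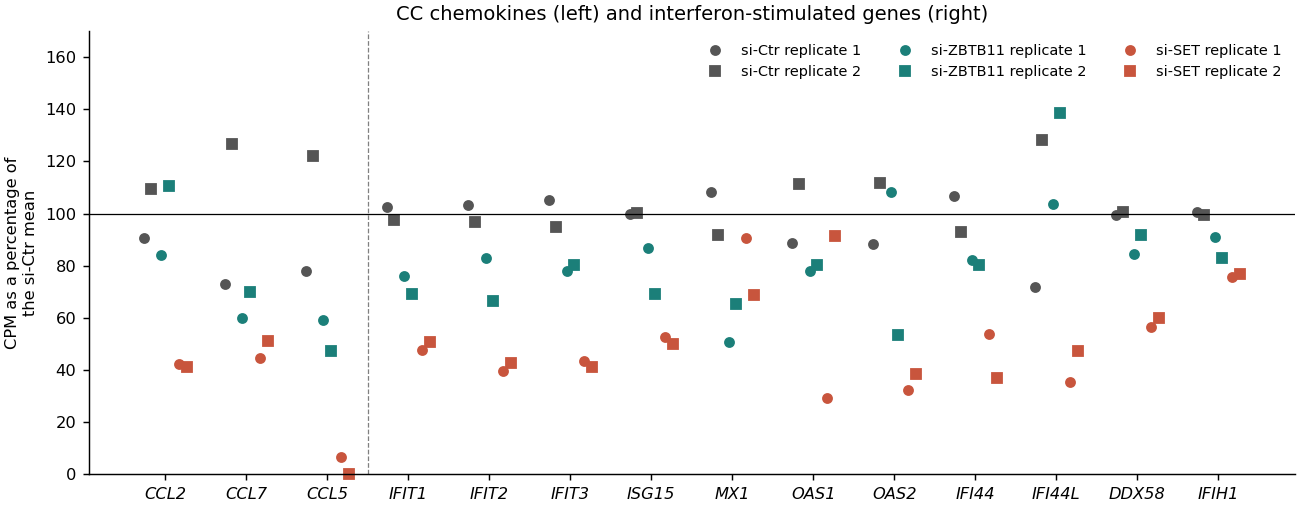
CPM of the CC chemokines CCL2, CCL7 and CCL5 (left of the dashed line) and of the 11 interferon markers that passed the filter on low counts (right) in each library, as a percentage of the mean of the 2 si-Ctr libraries; colours mark the siRNA and symbols the replicate. Both si-SET libraries lie below the other 4 for each gene shown except MX1 and OAS1, and the si-ZBTB11 libraries of CCL2 and OAS2 lie on both sides of the si-Ctr mean.

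CXCL2, a neutrophil attractant, was the most abundant of the 10 genes and was slightly higher upon SET knockdown. It had 3689 and 3811 counts in si-Ctr, 3722 and 3591 in si-ZBTB11 and 4488 and 4361 in si-SET. Both si-SET libraries lay above the other 4, which overlapped. In CPM these are 219 ± 12.0, 215 ± 1.22 and 255 ± 1.92 (mean ± SD, n = 2 each). The log2 fold change was 0.22 (SE 0.04) in si-SET against si-Ctr, a 1.16-fold higher level. Between the knockdowns CXCL2 was 1.19-fold higher in si-SET (log2 fold change 0.25, SE 0.04, adjusted p = 0.000102, edgeR), and in si-ZBTB11 against si-Ctr it was −0.03 (SE 0.04, adjusted p = 0.731). CXCL2 and CCL2 therefore lay on opposite sides of the other libraries in si-SET.

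The remaining ELR chemokines had few reads. CXCL3 had 26 and 18 counts in si-Ctr, 27 and 27 in si-ZBTB11 and 31 and 29 in si-SET, so that both knockdowns lay just above the control. Its log2 fold changes were 0.31 (SE 0.39, adjusted p = 0.645, edgeR) in si-ZBTB11 and 0.43 (SE 0.39) in si-SET, each about as large as its error. CXCL1 had 15 and 17 counts in si-Ctr, 7 and 16 in si-ZBTB11 and 16 and 7 in si-SET. In both knockdowns 1 library was at the control level and the other below it, and the log2 fold change was −0.46 (SE 0.51, adjusted p = 0.593, edgeR) in si-ZBTB11 and −0.50 (SE 0.52) in si-SET. Between the knockdowns CXCL3 gave 0.12 (SE 0.36, adjusted p = 0.861) and CXCL1 −0.03 (SE 0.59, adjusted p = 0.978, edgeR), with errors that leave changes of the size seen for CXCL2 undetectable at this depth.

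CXCL8 (IL-8), the classical neutrophil chemokine, did not reach the filter on low counts. It had 7 and 8 counts in si-Ctr, 2 and 6 in si-ZBTB11 and 3 and 5 in si-SET, and the control libraries were the highest. Its summed counts gave a ratio of 0.536 for si-ZBTB11 against si-Ctr (95% counting interval 0.197 to 1.35, which includes 1). For si-SET against si-Ctr the ratio was 0.526. CXCL8 (73740519 to 73743716, plus strand), CXCL1 (73869393 to 73871308, plus strand), CXCL3 (74036589 to 74038807, minus strand) and CXCL2 (74097040 to 74099196, minus strand) lie in this order on chromosome 4, with gaps of 125.7, 165.3 and 58.2 kb between neighbours. Of the 31-base words of CXCL2, 21.7% occur in other genes, of CXCL1 15.0% and of CXCL3 9.57%, chiefly in each other, and how the counting treated reads with several matches is not given in the sources used here. None of their 100-base words is shared.

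IL1A and IL1B, the agonists of the IL-1 receptor, lie 45.3 kb apart on the minus strand of chromosome 2 (112773925 to 112784493 and 112829751 to 112836816) and were both near the floor. IL1A had 3 and 8 counts in si-Ctr, 4 and 3 in si-ZBTB11 and 4 and 4 in si-SET, with overlapping groups. IL1B had 8 and 7 counts in si-Ctr, 2 and 4 in si-ZBTB11 and 2 and 2 in si-SET, and each knockdown library was below each control library. The ratio of summed counts of IL1B to si-Ctr was 0.402 (95% counting interval 0.128 to 1.10) in si-ZBTB11 and 0.263 in si-SET. That of IL1A was 0.640 (0.210 to 1.81) in si-ZBTB11 and 0.717 in si-SET. Neither gene passed the filter on low counts, so no test was made. Of the proteins that process IL-1, caspase-1 (CASP1) had 0 to 4 counts per library and its adaptor PYCARD had 2 and 2 in si-Ctr and 0 in the others. NLRP1, an inflammasome sensor, was higher in si-SET (log2 fold change 0.55, adjusted p = 2.77e-12) and CASP4 lower (−0.19, adjusted p = 0.0377, edgeR), while none of the 4 genes tested in this list passed in si-ZBTB11.

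IL6 had 0 counts in all 6 libraries, which allows up to 0.179 CPM in the shallowest of them. IL6 lies on chromosome 7 (22725884 to 22732002, plus strand) and overlaps IL6-AS1 and STEAP1B on the opposite strand. Its kB element, printed above, therefore stands beside a gene without a read in these cells, and that of CXCL2 beside the most abundant of the 10 genes.

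LIF, an IL-6 family cytokine, was the second most abundant of the 10 genes and the one that rose upon ZBTB11 knockdown. It had 665 and 656 counts in si-Ctr, 794 and 825 in si-ZBTB11 and 742 and 703 in si-SET. The si-ZBTB11 libraries were highest, the si-Ctr libraries lowest, and the 3 groups did not overlap. In CPM these are 38.6 ± 0.848, 47.6 ± 2.22 and 41.6 ± 0.430 (mean ± SD, n = 2 each). The rise in si-ZBTB11 was 1.23-fold (log2 fold change 0.30, SE 0.08, adjusted p = 0.00134, edgeR). Leaving out si-ZBTB11 replicate 2 gave 0.25 with an adjusted p of 0.0546 in edgeR. In si-SET the log2 fold change was 0.11 (SE 0.08), and between the knockdowns LIF was −0.19 (SE 0.07, adjusted p = 0.0654, edgeR), which does not pass the threshold, so a difference between the knockdowns was not shown. LIF lies on chromosome 22 (30240453 to 30246759, minus strand) and overlaps LIF-AS1 and LIF-AS2 on the opposite strand, and the strand setting of the counting is not given in the sources used here.

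**Figure D3:**
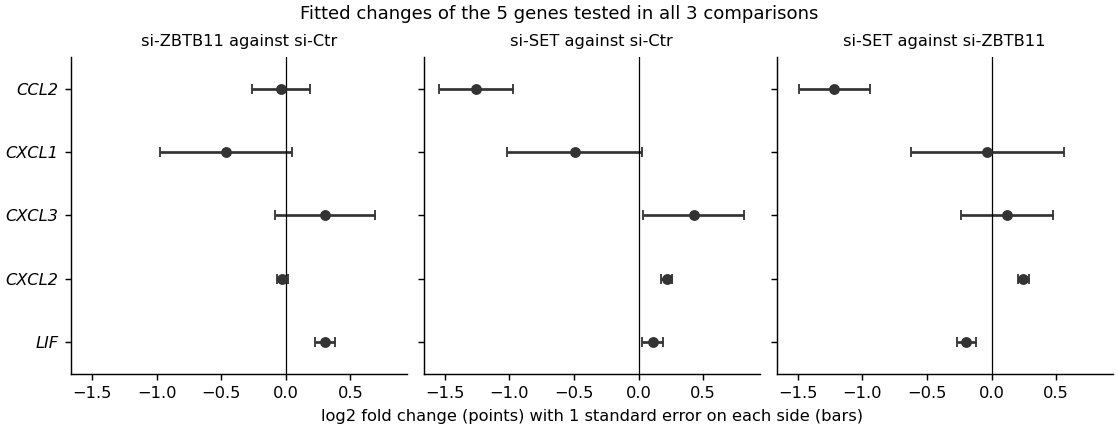
Fitted log2 fold changes (horizontal axis) of the 5 genes that could be tested in all 3 comparisons, 1 panel per comparison, with bars of 1 standard error on each side. The bars of CXCL2 and LIF are the shortest and those of CXCL1 the longest, and CCL2 lies at −1.26 and −1.22 in the panels with si-SET.

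Of the 10 genes, 6 passed the filter on low counts in si-ZBTB11 against si-Ctr. CCL5, 1 of them, did so through si-Ctr alone and is left out of the count. Of the others 1, LIF, was called at an adjusted p under 0.05 and was higher. In that comparison 20.5% of all 13534 genes tested were called, 9.94% higher and 10.5% lower, and 1.57% met the criteria of the study (a change of over 1 on the log2 scale in either direction at an unadjusted p under 0.05), which none of the 10 met. The share called among the tested genes other than CCL5 is thus about that of all genes. In si-SET against si-Ctr, CCL5 is left out of the count, since the list was chosen on it and it passed the filter through si-Ctr alone. Of the other genes tested there CXCL2 was called higher and CCL2 lower, where 27% of 13599 genes were called, 13.1% higher and 13.9% lower. CCL2 also met the criteria of the study, against 2.15% of all genes, and nothing is read from these counts, since the genes were listed with this comparison in view. In si-SET against si-ZBTB11, 2 of 5 were called, CXCL2 higher and CCL2 lower, where 18.2% of 13549 genes were called, 8.58% higher and 9.61% lower, and 1 met the criteria of the study, against 1.36%. The median log2 fold change of those tested was −0.03 in si-ZBTB11 against si-Ctr (CCL5 included) and −0.03 in si-SET against si-ZBTB11, with 0.00 over all genes in both. The comparisons with si-Ctr share their control libraries.

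Among the other chemokines few were expressed. Of 24 other CC chemokine genes 10 had any count and 2 were tested, CCL7 and CCL28. CCL28, a mucosal chemokine, had 296 and 283 counts in si-Ctr, 338 and 355 in si-ZBTB11 and 279 and 255 in si-SET, and it was lower in si-SET than in si-ZBTB11 (log2 fold change −0.41, adjusted p = 0.0119, edgeR), with neither knockdown passing against si-Ctr (adjusted p = 0.0793 and 0.423). Of 16 other CXC, C and CX3C genes 8 had any count. CXCL16, a membrane-bound chemokine that can be shed, had 215 and 219 counts in si-Ctr, 110 and 155 in si-ZBTB11 and 131 and 154 in si-SET. It was lower in both knockdowns (log2 fold change −0.70, adjusted p = 0.000233, and −0.63, adjusted p = 0.000462, edgeR). The interferon-induced chemokines CXCL9, CXCL10 and CXCL11 had at most 8 counts in any library, and CX3CL1 and CXCL12 had 0.

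Other cytokines moved in a few members. None of the 9 other IL-1 family ligands was tested, the highest having 7 counts in a library. Of the IL-6 family, IL11 was lower in si-ZBTB11 (log2 fold change −0.78, adjusted p = 0.0479) and CTF1 and CLCF1 were higher in si-SET (0.62, adjusted p = 0.0324, and 0.37, adjusted p = 0.0305, edgeR), whereas OSM and IL27 were at or near 0. Of 14 other secreted cytokines 11 were tested, with 1 higher and 3 lower in each knockdown against si-Ctr. Over all genes tested, 20.5% were called in si-ZBTB11 and 27% in si-SET. IL23A, a subunit of IL-23, had 70 and 67 counts in si-Ctr, 22 and 31 in si-ZBTB11 and 28 and 17 in si-SET. It was lower in both (log2 fold change −1.35, adjusted p = 0.000186, and −1.62, adjusted p = 2.26e-05, edgeR). CSF1, the macrophage growth factor, was lower in both as well (−0.51, adjusted p = 8.83e-05, and −0.78, adjusted p = 2.13e-09). IL32 was lower (−0.45, adjusted p = 0.0137) and VEGFA higher (0.25, adjusted p = 0.00189) in si-ZBTB11, and IL7 was lower (−0.66, adjusted p = 0.00138) and TGFB1 higher (0.12, adjusted p = 0.00976, edgeR) in si-SET. TNF, the other classical driver of NF-kB, had 1 count in 1 library.

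The chemokine receptors named here were not detectable in these cells. CCR1, CCR2, CXCR1, CXCR2 and ACKR1 had 0 counts in all 6 libraries and CCR3 had 1 in total, which allows up to 0.179 CPM per library. The receptors for the cytokines were expressed. IL6ST, the gp130 chain that LIF and IL-6 share, had 7337 and 7256 counts in si-Ctr, 5804 and 5693 in si-ZBTB11 and 6997 and 6597 in si-SET. It was lower in si-ZBTB11 (log2 fold change −0.33, adjusted p = 4.59e-12) and, by less, in si-SET (−0.12, adjusted p = 0.00938, edgeR), and the knockdowns differed (0.21, adjusted p = 0.000291). IL1RAP, the accessory chain of the IL-1 receptor, had 505 and 501, 336 and 349, and 476 and 488 counts in the same order. It was lower in si-ZBTB11 (−0.54, adjusted p = 6.38e-06), and the knockdowns differed (0.46, adjusted p = 0.000796, edgeR). IL6R had 148 and 161, 195 and 196, and 130 and 88 counts, lower in si-SET than in si-Ctr (−0.53, adjusted p = 0.0156) and than in si-ZBTB11 (−0.87, adjusted p = 0.00021, edgeR). LIFR, with 526 to 605 counts, and IL1R1, with 178 to 274, did not pass against si-Ctr, and IL1R1 was higher in si-SET than in si-ZBTB11 (0.41, adjusted p = 0.0284). IL1R2, the decoy receptor, had at most 5 counts.

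The listed genes of IL-1 and IL-6 signalling inside the cell all passed the filter on low counts. MYD88 had only 7 to 15 counts per library, too few to judge its change (log2 fold change −0.13, SE 0.59, in si-ZBTB11 against si-Ctr). Of 14 genes of IL-1 and IL-6 signalling, 2 were higher and 3 lower in si-ZBTB11, and 1 was higher and 4 lower in si-SET. The shares of all genes called were 20.5% and 27%, in the same order. IRAK2, IRAK4 and JAK1 were lower in both, IRAK2 the most (log2 fold change −0.38, adjusted p = 1.18e-05, and −0.48, adjusted p = 1.09e-07, edgeR). IRAK1 was higher in si-ZBTB11 (0.13, adjusted p = 0.00322), and in si-SET the phosphatase PTPN11 was higher (0.23, adjusted p = 3.81e-06) and JAK2 lower (−0.33, adjusted p = 0.00577, edgeR). STAT3 was higher in si-ZBTB11 (0.21, adjusted p = 0.00181), where LIF was higher and IL6ST lower. SOCS3, which STAT3 induces and which restrains gp130, had 426 to 470 counts per library and did not pass in any of the 3 comparisons (log2 fold changes 0.00 to 0.09, adjusted p = 0.559 to 0.993).

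Of 14 transcription factors known to act on chemokine promoters, 2 were higher and 3 lower in si-ZBTB11. In si-SET 3 were higher and 4 lower. The shares of all genes called were 20.5% and 27%, in the same order. The NF-kB subunits did not pass in any comparison. RELA had 1950 to 2068 counts per library, with log2 fold changes of −0.01 to 0.00, and NFKB1 had 1053 to 1236, with log2 fold changes of −0.12 to 0.02. The AP-1 genes JUN and ATF3 were higher in both knockdowns, ATF3 by 0.58 (adjusted p = 0.00448) and 0.74 (adjusted p = 7.87e-05, edgeR). FOSL1 was lower in both, by −0.48 (adjusted p = 2.66e-20) and −0.27 (adjusted p = 1.1e-08, edgeR). IRF1 and IRF3 were lower in both as well, IRF3 by −0.17 (adjusted p = 0.047) and −0.36 (adjusted p = 9.47e-06, edgeR). Of 8 genes for mRNA decay and stability, ZFP36L1 and HNRNPD were higher and ZFP36L2 lower in si-ZBTB11, all within 0.26 on the log2 scale, and HNRNPD and KHSRP were higher in si-SET. ZFP36 itself had 958 to 1158 counts and did not pass (adjusted p = 0.0532 in si-ZBTB11 and 0.359 in si-SET).

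**Figure D4:**
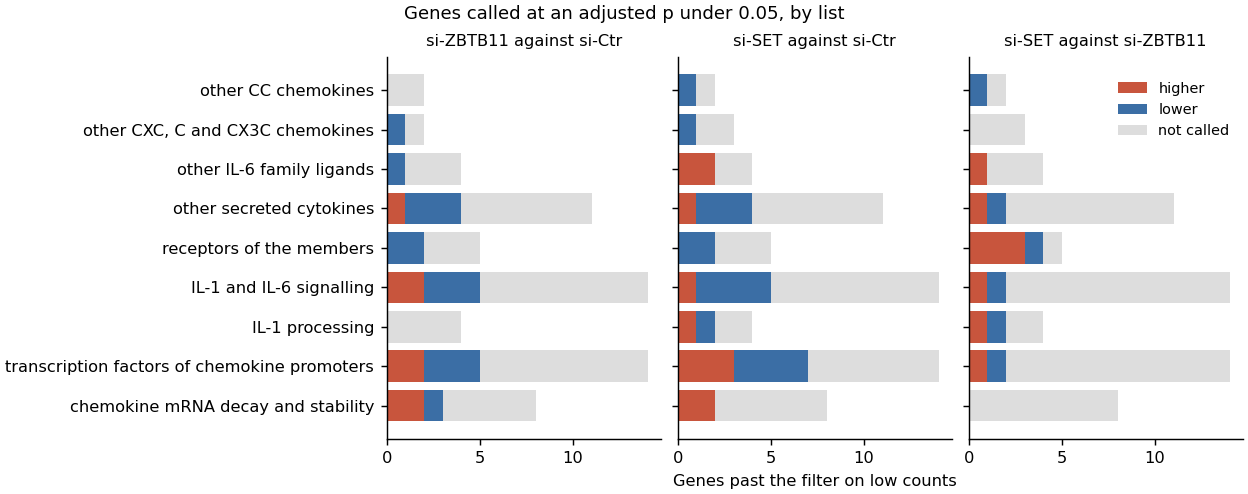
Number of genes (horizontal axis) past the filter on low counts in each list, split into those called higher, called lower and not called at an adjusted p under 0.05 by edgeR, for the 3 comparisons. Over these 9 lists, 21 of 64 were called in si-ZBTB11 and 26 of 65 in si-SET against si-Ctr. Between the knockdowns 14 of 65 were called. The shares over all genes tested were 20.5%, 27% and 18.2%, in the same order.

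Interferon-stimulated genes, which cells switch on as an antiviral defence, were lower in the si-SET libraries as well. Of 15 markers 11 were tested, and 8 were lower in si-SET and 4 in si-ZBTB11, with none higher. Over all genes tested, 13.9% and 10.5% were called lower in these comparisons. Between the knockdowns 7 markers were lower in si-SET, where 9.61% of all genes were called lower. IFIT3 had 687 and 594 counts in si-Ctr, 503 and 504 in si-ZBTB11 and 288 and 261 in si-SET. Its log2 fold change was −0.34 (adjusted p = 0.00186) in si-ZBTB11 and −1.24 (adjusted p = 5.96e-20, edgeR) in si-SET. IFIT2 gave −0.42 (adjusted p = 0.000407) and −1.29 (adjusted p = 4.07e-19), and ISG15 −0.36 (adjusted p = 4e-06) and −0.96 (adjusted p = 5.98e-24, edgeR). IFIT1 gave −0.46 (adjusted p = 0.00195) and −1.03 (adjusted p = 4.85e-11, edgeR). OAS2, with 7 to 23 counts per library, was lower in si-SET (−1.49, adjusted p = 0.0277, edgeR). The interferon genes IFNB1, IFNL1, IFNL2 and IFNL3 had 0 counts in all 6 libraries. The part of this set of genes in the values of CCL5 and CCL2 was not tested.

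A listed endothelial marker also moved. PECAM1 had 44 and 46 counts in si-Ctr, 21 and 18 in si-ZBTB11 and 9 and 11 in si-SET. The study reports PECAM1 as a gene that both SET and ZBTB11 regulate in H1299 cells, also by RT-qPCR. CDH5 had 1 count in total and VWF 2 to 12 per library. KDR was lower in si-ZBTB11 (log2 fold change −0.96, adjusted p = 0.0209, edgeR), with 46 and 54 counts in si-Ctr, 28 and 23 in si-ZBTB11 and 48 and 56 in si-SET. Apart from these 2 genes no tested fibroblast or endothelial marker passed in any comparison.

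By the shape of their values over the 6 libraries, the genes most like CCL5 among 13722 were LARP4B, CDR2L, PLEKHO2, HIST1H2AG and WNK2 (Pearson r of log2 CPM 0.995 to 0.998). Those most like CXCL2 were NDUFAF4, ARHGAP44, USP35, NTN4 and C6orf120 (r 0.991 to 0.997). NTN4, for example, had 202 and 216 counts in si-Ctr, 204 and 194 in si-ZBTB11 and 297 and 277 in si-SET. These are the highest of many correlations over 6 points that fall into 3 groups, and are given as a description.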

How the data were processed

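H1299 cells were transfected with control, ZBTB11 or SET siRNA, and total RNA was sequenced in 6 libraries, 2 per group. The authors used an NEBNext Ultra RNA kit, aligned the read pairs to hg38 by HISAT2 2.0.5 and counted them per gene with featureCounts 1.5.0-p3 (versions per the submitters' processing notes), and deposited whole-number counts that were not normalized. How featureCounts was set for strand and for reads with several matches, and its annotation, are not given in the sources used here. Overlapping genes and those with shared sequence are therefore uncertain.

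Samples were grouped by their labels. Each pair of groups was fitted alone with edgeR 4.0.16 in R 4.3.3 (TMM, filterByExpr, quasi-likelihood test, two-sided), as the study compared each knockdown with the control without covariates, with Benjamini-Hochberg adjustment across every gene tested. Genes were called at an adjusted p under 0.05. With 2 libraries per group, p-values rest on the spread pooled over genes. Genes under the filter were compared by summed counts. In si-ZBTB11 against si-Ctr an exact binomial 95% interval was added, which covers counting error only. Promoters are RefSeq sequences, and positions, lengths and 3′ untranslated regions are from GENCODE version 44 on hg38. The fit was tested on simulated data.

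The 10 genes and all lists were chosen with earlier results of these data known. All 10 were named, and of each list the genes called (at most 3 per direction and comparison), the members' receptors and related ligands. DESeq2 1.42.0, other normalizations, filters, a joint fit, a replicate block and the omission of each library were tried as alternatives. The correlation of deviations between same-numbered libraries was 0.0114 to 0.0257, and the numbers were not taken as pairs. Some single-gene results that this rule would include are left out.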

Additional observations from a re-analysis of the deposited data

How the results depend on the processing

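For the 10 genes, 171 of 181 values from the alternatives kept their direction and were called or not called as before, 3 lost the call, 1 gained it and 6 changed sign. Values to which DESeq2 gave no adjusted p, such as those of CXCL1 in each comparison, were counted as not called. Fits in which a gene failed the filter gave no value for it. Values of CCL5 are among the 181 and are no support for its fall, since the list was chosen on it. For the 94 other called results, 911 of 1031 values were kept and 120 lost the call. DESeq2 called fewer genes, 1296 in si-ZBTB11 and 1771 in si-SET against si-Ctr and 1217 between the knockdowns, in place of 2771, 3667 and 2465, and 16 in place of 26 genes of the pathway lists in si-SET. It gave no adjusted p for CCL5 in si-SET. Leaving out each library in turn gave 1794 to 2197 genes in si-ZBTB11, the lowest without si-Ctr replicate 2, 2411 to 2936 in si-SET, the lowest without the same library, and 0 to 1 of the 10 genes in si-ZBTB11 and 1 to 2 between the knockdowns, the lowest without si-ZBTB11 replicate 2, which ended the calls of LIF and CCL2 there. The pathway lists then gave 17 to 24 genes in si-SET, the lowest without si-Ctr replicate 2, and 9 to 14 between the knockdowns, the lowest without si-ZBTB11 replicate 2. In si-ZBTB11 against si-Ctr, the log2 fold change of CCL2 ran from −0.25 to 0.15 and was above 0 without si-Ctr replicate 2 (0.10) or si-ZBTB11 replicate 1, that of CXCL1 ran from −1.19 to 0.030 (above 0 without si-ZBTB11 replicate 1) and that of CXCL2 from −0.081 to 0.029 (above 0 without si-Ctr replicate 2). Between the knockdowns, that of CXCL1 ran from −0.71 to 0.69 and was above 0 without si-SET replicate 2 (0.41) or si-ZBTB11 replicate 2. The cause was not tested, beyond the smaller number of libraries. With the replicate number as a block, 3155, 4103 and 2996 genes were called in the 3 comparisons. Of the 10 genes, 1 was then called in si-ZBTB11 against si-Ctr and 3 between the knockdowns, where LIF was added (−0.19, adjusted p = 0.0420, edgeR). Levels per length kept the order of CXCL2, LIF, CCL2, CXCL3, CXCL1 and CCL5 with the longest or the canonical transcript (the latter chosen after seeing the data), with CCL2 at 4.75 in place of 1.82 CPM per kb for the canonical one. Depth limits CXCL1, CCL5, CXCL8, IL1A, IL1B and IL6, with fewer than 20 counts in every library.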
